A study of Mus musculus with 18 samples.

Results

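The genes described here encode the enzymes and chaperones that hydroxylate, fold and trim fibrillar collagen: P4ha1, P4ha2, P4ha3, Plod1, Plod2, Plod3, Serpinh1, Bmp1, Pcolce and Adamts2. They were chosen by name as the members of a pathway and found in the count table through their Ensembl identifiers and the GENCODE mouse annotation. All 10 were present among the 54281 genes of the table. RNA of the descending aorta, with intima, media and adventitia together, was sequenced from 18 male C57BL/6 mice. The HGPS group was 6 mice with the genotype label LMNAG609G, a Lamin A mutation that makes cells splice the transcript into progerin, at 64 to 75 d of age. The 2-mo WT group was 6 wild-type mice, 5 of them at 62 d and 1 at 95 d, and the 24-mo WT group was 6 wild-type mice at 609 to 762 d. The labels do not give the number of mutant copies, but the study describes its HGPS mice as homozygous knock-ins at the mouse's own Lmna gene. The mice carry the allele in the whole body, not in the vessel wall alone.

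A procollagen chain is modified while it enters the endoplasmic reticulum. Prolyl 4-hydroxylase acts on prolines so that the triple helix is stable at body temperature, lysyl hydroxylases act on lysines that later carry sugars and cross-links, and the chaperone HSP47 binds the folded helix. Outside the cell the propeptides at both ends are cut off, which lets fibrils form before Lox and its relatives cross-link them. In the arterial wall these proteins are made by smooth muscle cells and fibroblasts.

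Expression is given as CPM, the counts of a gene relative to the TMM-scaled size of its library, and each mouse is 1 replicate. Library totals ran from 12413229 to 30844775 counts, and the HGPS libraries were on the whole the deepest (17838351 to 30844775, against 12413229 to 21016752 in 2-mo WT and 13622602 to 19871697 in 24-mo WT). The smooth muscle markers were abundant in every library (8 of 8 markers detected, summed level 20142 to 39113 CPM), as the label of the tissue implies. The Lmna gene had 577 ± 82.3 CPM in HGPS, 416 ± 60.7 CPM in 2-mo WT and 418 ± 73.2 CPM in 24-mo WT (SD, n = 6 each), and gene-level counts do not show the splice change itself. Whole aorta is a mixture of cells, so fewer cells of a type and less RNA per cell cannot be told apart in any value below.

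The members differed widely in abundance. Divided by the length of their annotated exons, the levels in 2-mo WT aorta ran from 424 ± 41 CPM per kb for Serpinh1 down to 0.148 ± 0.0615 CPM per kb for P4ha3 (SD, n = 6). Pcolce at 64.4 ± 5.04 and Adamts2 at 43.4 ± 2.50 CPM per kb came after Serpinh1. P4ha1 followed at 35.3 ± 5.84, Plod2 at 26.8 ± 2.55, Plod3 at 23.3 ± 2.27, Bmp1 at 13.0 ± 1.26, Plod1 at 12.9 ± 1.24 and P4ha2 at 9.32 ± 1.07 CPM per kb. Adamts2, P4ha1, Plod2 and Plod3 formed a chain in which each gene overlapped the next, and Bmp1 and Plod1 overlapped each other. All other neighbours in this order had mice that were apart. The order at the top and at the bottom was the same in all 3 groups, and with the longest transcript as the length P4ha1 and Plod2 exchanged places in 2-mo WT.

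**Figure D1:**
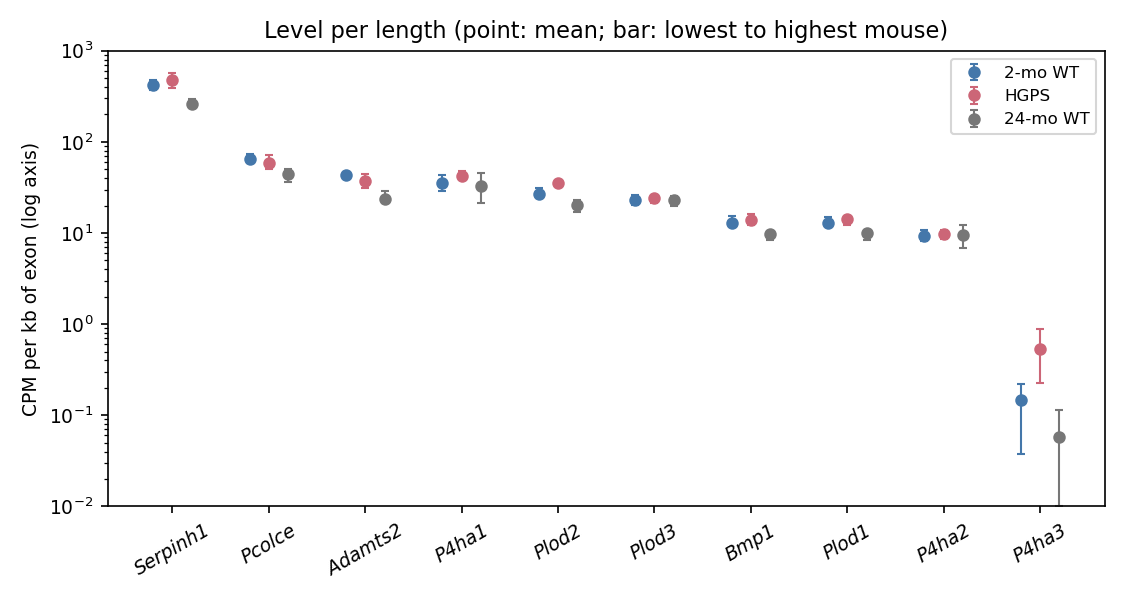
Level of each member per kb of exon (CPM per kb, log axis) in 2-mo WT, HGPS and 24-mo WT aorta, 6 mice each, with points for the mean and bars from the lowest to the highest mouse. Serpinh1 lies highest and P4ha3 lowest in all 3 groups, and the bar of P4ha3 in 24-mo WT leaves the axis because 1 mouse had 0 counts.

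Prolyl 4-hydroxylase is a tetramer whose catalytic alpha subunit comes from P4ha1, P4ha2 or P4ha3 and whose beta subunit is protein disulfide isomerase, encoded by P4hb. P4ha1 lies on chromosome 10 (59323296 to 59373304, plus strand), P4ha2 on chromosome 11 (54100095 to 54131665, plus strand) and P4ha3 on chromosome 7 (100285520 to 100319699, plus strand) of GRCm38. Their transcripts shared 0 words of 31 bases with each other, so reads of one subunit are not easily taken for those of another, and the same was true of Plod1, Plod2 and Plod3.

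P4ha1 had 119.7, 141 and 176 CPM (lowest, median and highest mouse) in 2-mo WT, 165, 169 and 195 CPM in HGPS and 86.7, 129 and 186 CPM in 24-mo WT. The groups overlapped in each pair. The HGPS mice lay close together (CV 6.99%) while the 24-mo WT mice were spread (CV 29.1%), with 24-mo WT replicates 2 and 3 among the HGPS values. The log2 fold change was 0.27 (SE 0.15, adjusted p = 0.156) for HGPS against 2-mo WT and -0.10 (SE 0.15, adjusted p = 0.744) for 24-mo WT against 2-mo WT, and neither passed the test. The HGPS value did pass with brown fat and skeletal muscle scores in the fit (0.66, adjusted p = 0.0201) and in a fit of only these groups (0.26, adjusted p = 0.0331). Between HGPS and 24-mo WT it was 0.37 (SE 0.15, adjusted p = 0.0502), at the threshold, and without 24-mo WT replicate 3 it was 0.48 (adjusted p = 0.0105).

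P4ha2 was the steadiest of the subunits. Its lowest, median and highest mice had 50.6, 58.9 and 68.0 CPM in 2-mo WT, 53.3, 61.1 and 67.4 CPM in HGPS, and 42.2, 57.3 and 76.1 CPM in 24-mo WT. The 24-mo WT mice enclosed both younger groups. The 95% interval of the log2 fold change was -0.18 to 0.31 in HGPS against 2-mo WT and -0.21 to 0.29 in 24-mo WT against 2-mo WT.

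P4ha3 was near the detection limit in wild-type aorta, with 2 to 15 counts per 2-mo WT mouse and 0 to 5 counts per 24-mo WT mouse, against 17 to 55 in HGPS. On the CPM scale the lowest, median and highest mice had 0.118, 0.499 and 0.689 CPM in 2-mo WT, 0.710, 1.65 and 2.77 CPM in HGPS and 0, 0.163 and 0.359 CPM in 24-mo WT. The 1 mouse with 0 counts allows up to 0.176 CPM, the level of 3 counts in that library, which covers counting error only. Every HGPS mouse lay above every wild-type mouse. The log2 fold change was 1.80 (SE 0.43, adjusted p = 0.00219) for HGPS against 2-mo WT, 3.19 (SE 0.49, adjusted p = 2.97e-05) for HGPS against 24-mo WT and -1.38 (SE 0.53, adjusted p = 0.103) for 24-mo WT against 2-mo WT. P4ha3 reached the minimum of 10 counts in 6 mice only through the HGPS group, so it had to differ in order to be tested, and it adds nothing to a count of members. Even in HGPS its level per kb was 0.531 ± 0.271 CPM, against 42.6 ± 2.98 for P4ha1 and 9.72 ± 0.992 for P4ha2 (SD, n = 6).

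The promoters of P4ha1, P4ha2 and Serpinh1 are shown because they hold a motif of the hypoxia response, P4ha1 and P4ha2 as the main subunits and Serpinh1 as the member with the highest level per kb. Prolyl hydroxylase genes are known targets of the hypoxia-inducible factor. The core of its response element can read ACGTG, the only form searched here. The RefSeq promoter table (GRCm38.p6) held 8 of the 10 genes, all but Plod2 and Bmp1, as windows from 250 bases before to 50 bases after the start site. The 250 bases before the start are printed on the strand of the gene, 5′ to 3′, with ACGTG or its reverse complement CACGT in capitals. They are chr10:59323046-59323295 on the plus strand for P4ha1, chr11:54100674-54100923 on the plus strand for P4ha2 and chr7:99353240-99353489 on the minus strand for Serpinh1. The P4ha2 window follows the RefSeq start site and lies inside the gene as GENCODE annotates it, which begins at 54100095.
P4ha1: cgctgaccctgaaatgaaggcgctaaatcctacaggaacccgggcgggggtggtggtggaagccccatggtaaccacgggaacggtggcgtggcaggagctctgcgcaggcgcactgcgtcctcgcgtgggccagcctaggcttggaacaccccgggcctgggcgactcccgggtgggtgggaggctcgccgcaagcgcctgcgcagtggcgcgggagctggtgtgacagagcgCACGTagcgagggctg
P4ha2: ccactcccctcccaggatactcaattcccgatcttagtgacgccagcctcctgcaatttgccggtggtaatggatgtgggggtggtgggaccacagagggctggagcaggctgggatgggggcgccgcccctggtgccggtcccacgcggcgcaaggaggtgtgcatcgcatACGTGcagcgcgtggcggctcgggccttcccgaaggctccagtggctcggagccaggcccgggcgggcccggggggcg
Serpinh1: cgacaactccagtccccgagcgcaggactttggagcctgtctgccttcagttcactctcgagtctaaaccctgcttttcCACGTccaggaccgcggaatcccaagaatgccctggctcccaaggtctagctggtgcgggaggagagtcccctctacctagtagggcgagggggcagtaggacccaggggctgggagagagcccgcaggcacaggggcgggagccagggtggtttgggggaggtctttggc

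The ACGTG form was found at base 235 of the P4ha1 window and at base 80 of Serpinh1, counted from 1 at the 5′ end. In P4ha2 it was found at bases 173 and 261, the latter past the start site. Plod3 had it once, at base 197, which made 4 of 8 members, while 19.6% of the 32851 promoters of this length in the table had it on either strand. The GC box GGGCGG was in 7 of 8 members (35.7% of all promoters), the heat shock pair GAANNTTC in 2, Plod1 and Adamts2 (7.86%), and TATAAA in 2, P4ha1 and Plod1 (13.6%). These are matches of letters in a short window, and binding of a factor was not measured.

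The lysyl hydroxylases differ in the lysines they act on: Plod1 modifies those in the triple helix, Plod2 those in the telopeptides that set the type of cross-link, and Plod3 also transfers sugars to hydroxylysine. Plod1 lies on chromosome 4 (147909753 to 147936767, minus strand), Plod2 on chromosome 9 (92542223 to 92608428, plus strand) and Plod3 on chromosome 5 (136987019 to 136996648, plus strand). The 3 genes gave 3 different patterns.

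Plod2 was the only member that passed the test in opposite directions in HGPS and in 24-mo WT. It had 130.1, 144 and 168 CPM (lowest, median and highest mouse) in 2-mo WT, 175, 194 and 199.9 CPM in HGPS and 92.2, 109 and 125 CPM in 24-mo WT. All 3 groups were apart from each other, with HGPS on top and 24-mo WT at the bottom. Plod2 rose 1.33-fold in HGPS against 2-mo WT (log2 fold change 0.41, SE 0.07, adjusted p = 0.000161) and fell by 0.41 on the log2 scale in 24-mo WT against 2-mo WT (SE 0.07, adjusted p = 0.000687). The test of the difference between these changes is HGPS against 24-mo WT, a 1.77-fold difference (log2 fold change 0.82, SE 0.07, adjusted p = 4.43e-08).

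Plod1 had 80.3, 84.8 and 103 CPM in 2-mo WT, 83.2, 98.0 and 103 CPM in HGPS and 56.9, 69.6 and 73.2 CPM in 24-mo WT. The old mice lay below all young mice, and HGPS overlapped 2-mo WT. Plod1 fell by 0.39 on the log2 scale in 24-mo WT against 2-mo WT (SE 0.08, adjusted p = 0.00207), and its value for HGPS against 2-mo WT was 0.14 (SE 0.08, adjusted p = 0.165). HGPS was higher than 24-mo WT by 0.52 (SE 0.08, adjusted p = 2.05e-05).

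Plod3 had medians of 105, 114 and 105 CPM in 2-mo WT, HGPS and 24-mo WT, with 92.5 to 119.5, 96.6 to 119 and 89.7 to 116 CPM across mice. The groups covered the same range. Its log2 fold change was 0.06 (95% interval -0.10 to 0.23) in HGPS and 0.00 (95% interval -0.16 to 0.16) in 24-mo WT, both against 2-mo WT. Plod3 overlaps Znhit1 on the other strand and the microRNA gene Mir702 on its own strand, and Plod2 overlaps Gm38391 on the other strand, which a stranded library separates.

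Serpinh1 (chromosome 7, 99345376 to 99353239, minus strand) encodes HSP47. Its lowest, median and highest mice had 897, 1033 and 1170.0 CPM in 2-mo WT, 963, 1140.5 and 1398 CPM in HGPS and 580.0, 631 and 717 CPM in 24-mo WT. The 24-mo WT mice lay well below all others, and the ranges of the 2 young groups overlapped. Serpinh1 fell to 0.617 of the 2-mo WT level in 24-mo WT (log2 fold change -0.70, SE 0.09, adjusted p = 3.73e-05). For HGPS against 2-mo WT the value was 0.18 (SE 0.09, adjusted p = 0.126), and HGPS was 1.83-fold above 24-mo WT (log2 fold change 0.87, SE 0.09, adjusted p = 4.64e-07).

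The remaining 3 members act outside the cell. Adamts2 (chromosome 11, 50602084 to 50807573, plus strand) encodes the procollagen N-proteinase, which removes the propeptide at the amino end. Bmp1 (chromosome 14, 70474558 to 70520234, minus strand) encodes the C-proteinase, as the short BMP1 and the longer mammalian tolloid, which a gene-level count does not separate. Pcolce (chromosome 5, 137605103 to 137613784, minus strand) encodes the enhancer that speeds this cut, and the gene overlaps Fbxo24 on its own strand, so reads in the shared part are uncertain.

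Adamts2 had 382, 401 and 441 CPM (lowest, median and highest mouse) in 2-mo WT, 289, 346 and 413 CPM in HGPS and 198, 212 and 270.3 CPM in 24-mo WT. The HGPS mice lay between the others, overlapping 2-mo WT and apart from 24-mo WT. It was the only member below 2-mo WT at an adjusted p under 0.05 in both other groups. It fell by 0.88 on the log2 scale in 24-mo WT (SE 0.09, adjusted p = 8.86e-07), the largest fall of any member called, and by 0.22 in HGPS (SE 0.08, adjusted p = 0.0445). The HGPS value was close to the threshold: leaving out any 1 of HGPS replicates 1, 2, 3 and 4 or of 2-mo WT replicates 2, 3, 4 and 5 moved the adjusted p to between 0.0577 and 0.0977, with the log2 fold change between -0.22 and -0.17. HGPS remained 1.58-fold above 24-mo WT (log2 fold change 0.66, SE 0.08, adjusted p = 4.78e-06).

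Pcolce had 225, 242 and 283 CPM in 2-mo WT, 195, 216 and 275 CPM in HGPS and 139.6, 172 and 193 CPM in 24-mo WT. The 24-mo WT mice were below all others, if only just below the lowest HGPS mouse. Pcolce fell by 0.55 on the log2 scale in 24-mo WT (SE 0.10, adjusted p = 0.000652), while the HGPS value of -0.13 (SE 0.10, adjusted p = 0.288) did not pass the test, and HGPS exceeded 24-mo WT by 0.42 (SE 0.10, adjusted p = 0.00135).

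Bmp1 had 105, 113 and 136 CPM in 2-mo WT, 109, 124 and 145 CPM in HGPS and 74.2, 88.7 and 93.4 CPM in 24-mo WT. Again the old mice lay below every young mouse. Bmp1 fell by 0.44 on the log2 scale in 24-mo WT (SE 0.08, adjusted p = 0.0015), its HGPS value was 0.10 (SE 0.08, adjusted p = 0.371), and HGPS exceeded 24-mo WT by 0.53 (SE 0.08, adjusted p = 3.80e-05).

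**Figure D2:**
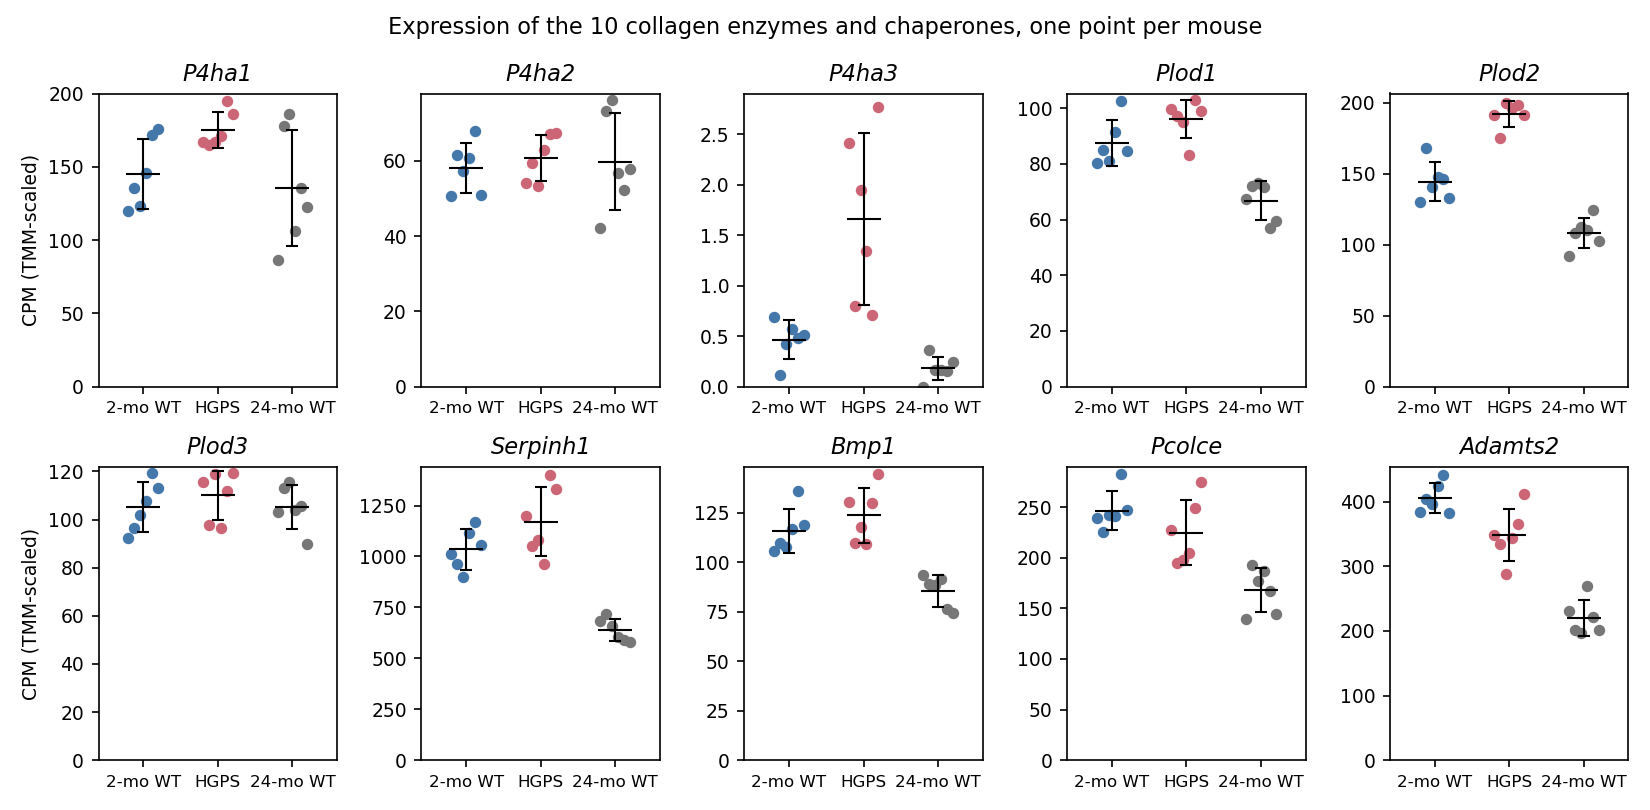
CPM of each member on axes that start at 0, one point per mouse, for 2-mo WT, HGPS and 24-mo WT, with horizontal bars for the mean and error bars for the SD (n = 6). In Plod1, Plod2, Serpinh1, Bmp1, Pcolce and Adamts2 the 24-mo WT points lie below all 2-mo WT points, and in Plod2 and P4ha3 the HGPS points lie above them.

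P4ha3 is left out of the counts and medians below, since it was tested only through its HGPS level, which leaves 9 members. In 24-mo WT against 2-mo WT, 6 of 9 had an adjusted p under 0.05 in the lower direction (Adamts2, Serpinh1, Pcolce, Bmp1, Plod2 and Plod1), against 5.38% of the 15210 genes tested, and all 6 had groups that did not overlap, as 6.28% of all genes did in either direction. With smooth muscle and fibroblast marker scores in the fit, 0 of the 6 passed. That fit called 0.75% of all genes in either direction, against 11.7% in the main fit. The main fit left 2 of 9 members at the stricter cut-offs of the study (Adamts2 and Serpinh1), against 2.00% of all genes. Those cut-offs are a 1.5-fold change with an adjusted p under 0.001. No member was higher, against 6.29% of genes, in edgeR's quasi-likelihood test or in DESeq2, and none was higher at an unadjusted p under 0.05. The median log2 fold change was -0.41 over the 9 members and 0.01 over all genes. The members that did not pass were P4ha1, P4ha2 and Plod3.

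In HGPS against the same 2-mo WT mice, 1 of 9 members was higher at an adjusted p under 0.05 (Plod2), beside 22% of all genes, and 1 of 9 was lower (Adamts2), beside 21.2%. The groups did not overlap in 1 of 9, beside 21.9% of all genes. These shares are not above the background of the comparison. At the cut-offs of the study edgeR and DESeq2 called 0 of 9, beside 9.50% of genes in edgeR, with 2 members at an unadjusted p under 0.05. The median log2 fold change was 0.10 over the 9 members and 0.00 over all genes.

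The contrast of HGPS with 24-mo WT tests whether the departures from 2-mo WT, which share their control mice, differ from each other. At an adjusted p under 0.05, 6 of 9 members were higher in HGPS (23.8% of all genes) and 0 were lower (23.6%). None was lower at an unadjusted p under 0.05 in edgeR or in DESeq2 either. All 6 had groups that did not overlap (22.2% of genes), and 3 passed the cut-offs of the study, Serpinh1, Plod2 and Adamts2 (12.1%). The median log2 fold change was 0.52 over the 9 members and -0.01 over all genes. Leaving out the 95-d mouse changed the number called at an adjusted p under 0.05 in neither comparison with 2-mo WT, where it stayed at 3 for HGPS, P4ha3 included, and at 6 for 24-mo WT.

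**Figure D3:**
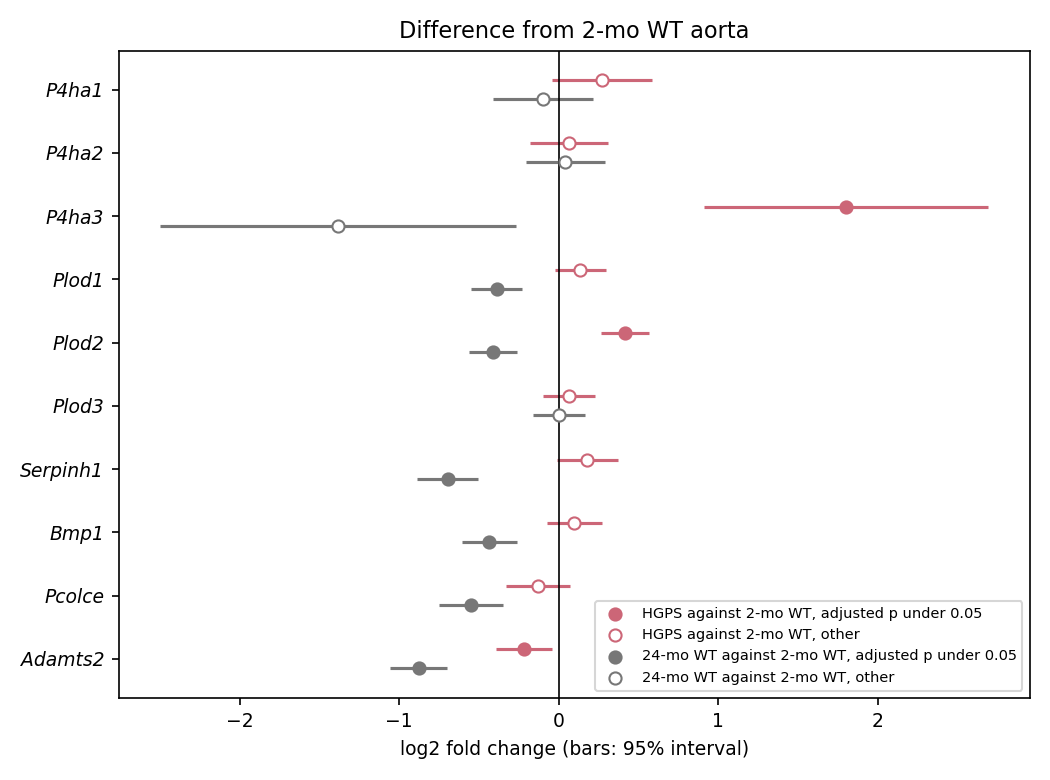
Log2 fold change of each member in HGPS and in 24-mo WT, both against the same 6 mice of 2-mo WT, with 95% intervals as bars and filled points for an adjusted p under 0.05. The 24-mo WT points run from -1.38 to 0.04, and the HGPS points lie between -0.22 and 0.41 except P4ha3 at 1.80.

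Cell type markers moved between the groups as well. They are counted here as higher or lower at an adjusted p under 0.05. Of all genes, 22% were higher and 21.2% lower in HGPS against 2-mo WT. In 24-mo WT against 2-mo WT 5.38% were lower. In HGPS, 6 of 8 smooth muscle markers were lower than in 2-mo WT, with summed levels of 20142 to 28016 CPM against 30509 to 39113 CPM, and 5 of 8 fibroblast markers were lower (2202 to 2971 against 3234 to 3606 CPM). All 8 macrophage markers were higher (593 to 891 against 325 to 488 CPM), as were 12 of 12 brown fat markers (539 to 1998 against 124 to 734 CPM) and 7 of 8 white fat markers (1429 to 4831 against 377 to 1723 CPM). In 24-mo WT, 4 of 8 fibroblast markers were lower, with an overlapping sum (2552 to 3613 CPM), and the smooth muscle sum was 31413 to 35835 CPM. The endothelial sum overlapped among all groups (1006 to 1377 CPM in HGPS, 687 to 1533 CPM in 2-mo WT and 568 to 1580 CPM in 24-mo WT). The skeletal muscle sum was low in all mice, at 2.79 to 4.71 CPM in 2-mo WT, 2.86 to 5.39 CPM in HGPS and 4.66 to 8.28 CPM in 24-mo WT. Of its 6 markers 3 were tested, of which 1 was higher and 1 lower in HGPS. In 24-mo WT 1 of the 3 was higher (6.29% of all genes) and 0 lower. Cartilage and bone markers had 86.6 to 126 CPM in 2-mo WT, 133 to 246 CPM in HGPS and 132 to 200.3 CPM in 24-mo WT, and nerve markers 191 to 247, 168 to 205 and 151 to 190 CPM. Of the 5 cartilage and bone markers tested, 3 were higher in 24-mo WT and 0 lower, beside 6.29% and 5.38% of all genes. Among them Ibsp rose from 0.477 to 10.6 CPM (log2 fold change 4.43, adjusted p = 1.30e-08). No marker was at 0 in all 18 mice. Bglap, a bone marker with too few counts to be tested, had 0 to 1 counts per 2-mo WT mouse and 0 in all 6 of 24-mo WT. With smooth muscle and fibroblast scores added to the fit, edgeR called 0 members in HGPS against 2-mo WT and 0 in 24-mo WT against 2-mo WT. There 3 and 2 of the 10 members, P4ha3 included, had an unadjusted p under 0.05. The share of all genes at that unadjusted p was not taken, so nothing is read from these 2 counts. That fit called 6 and 114 of all 15210 genes. The part of cell composition in the results was not tested beyond this.

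The main substrate chains of the members were also lower in 24-mo WT. Col3a1 went from 7502 ± 1040.0 CPM in 2-mo WT to 2375 ± 344 CPM in 24-mo WT (SD, n = 6, log2 fold change -1.66, adjusted p = 2.59e-07), Col1a2 from 5108 ± 574 to 2640 ± 613 CPM (-0.95, adjusted p = 0.000141) and Col1a1 from 1515 ± 221 to 800.1 ± 411 CPM (-0.92, adjusted p = 0.037). In HGPS, Col3a1 was lower (-0.38, adjusted p = 0.035), and Col1a2 (-0.33, adjusted p = 0.0693) and Col1a1 (-0.26, adjusted p = 0.479) did not pass the test. Of the 8 fibrillar chains tested of 9, 4 were lower in 24-mo WT (5.38% of all genes). In HGPS 1 was lower (21.2%) and 2 were higher (22%), Col5a2 (0.23, adjusted p = 0.0375) and Col11a1 (3.86, adjusted p = 0.000364). Col11a1 had 5 to 11 counts per 2-mo WT mouse, 1 to 9 in 24-mo WT and 23 to 432 in HGPS. Like P4ha3, it passed the count filter only through the HGPS group, so it adds nothing to the count of higher chains. Its level was also spread widely among the HGPS mice, from 0.961 to 21.7 CPM. Col5a2 fell with age (-0.98, adjusted p = 4.11e-07).

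Each member was therefore also set against the mean log2 CPM of Col1a1, Col1a2 and Col3a1 in the same mouse. On this log2 ratio all 10 members were higher in 24-mo WT than in 2-mo WT, by 0.20 for P4ha3 to 1.25 for P4ha2. Because the reference itself fell by 1.23, 99.4% of all genes tested were higher on this ratio. The groups did not overlap for 4 members, P4ha2, Plod1, Plod3 and Bmp1, all in the higher direction, as for 74.7% of all genes, so nothing is read from these counts. In HGPS the ratio exceeded 2-mo WT by 0.14 for Adamts2 to 0.78 for Plod2, where 83.2% of all genes were higher on average. No member other than P4ha3 had groups that were apart, beside 9.09% of all genes. The ratio of P4ha3 was higher by 1.94, with groups apart. P4ha3 was tested only through its HGPS level, so nothing is read from its separation. Among the members other than P4ha3, the ratio of Adamts2 changed least in both comparisons. It was -3.25 ± 0.0935 in 2-mo WT, -3.11 ± 0.214 in HGPS and -2.90 ± 0.262 in 24-mo WT (SD, n = 6). With all 8 detected chains as the reference, 7 of the HGPS differences from 2-mo WT turned negative. So did those of Adamts2 and P4ha3 in 24-mo WT, and the sign depends on which collagens are counted. The 8-chain reference rose by 0.19 in HGPS. It weighs all chains equally, and Col11a1, tested only through its HGPS level, rose by 3.86. How far the negative signs in HGPS rest on Col11a1 was not tested. On the 8-chain reference the groups of all 10 members, P4ha3 included, overlapped in both comparisons. Of all genes, 8.03% had groups apart in HGPS and 28.7% in 24-mo WT on that reference. With it, the difference of Plod1 in 24-mo WT was 0.38 in place of 0.84 and that of Bmp1 0.33 in place of 0.80.

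Within groups, the members did not vary as a single unit. After the group means were removed, the Pearson correlation over the 18 mice was highest for Serpinh1 with Bmp1 (0.82), Plod1 with Bmp1 (0.81), Plod3 with Bmp1 (0.77), P4ha1 with P4ha2 (0.77) and Plod1 with Serpinh1 (0.73), and lowest for P4ha1 with Adamts2 (-0.26). Plod2 had no correlation above 0.44 with any other member. Points of this kind share a library and a dissection, so the values are a description. Adamts2 followed the 3 substrate collagens (0.94), whereas P4ha1 had -0.41 with them. In the 12 young mice alone, an alternative chosen after seeing the data, the correlation of P4ha1 with P4ha2 was 0.40, and so rested largely on the spread of the 24-mo WT mice. Those of Adamts2 with the collagens (0.93), of Serpinh1 with Bmp1 (0.86) and of Plod1 with Bmp1 (0.78) changed little.

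**Figure D4:**
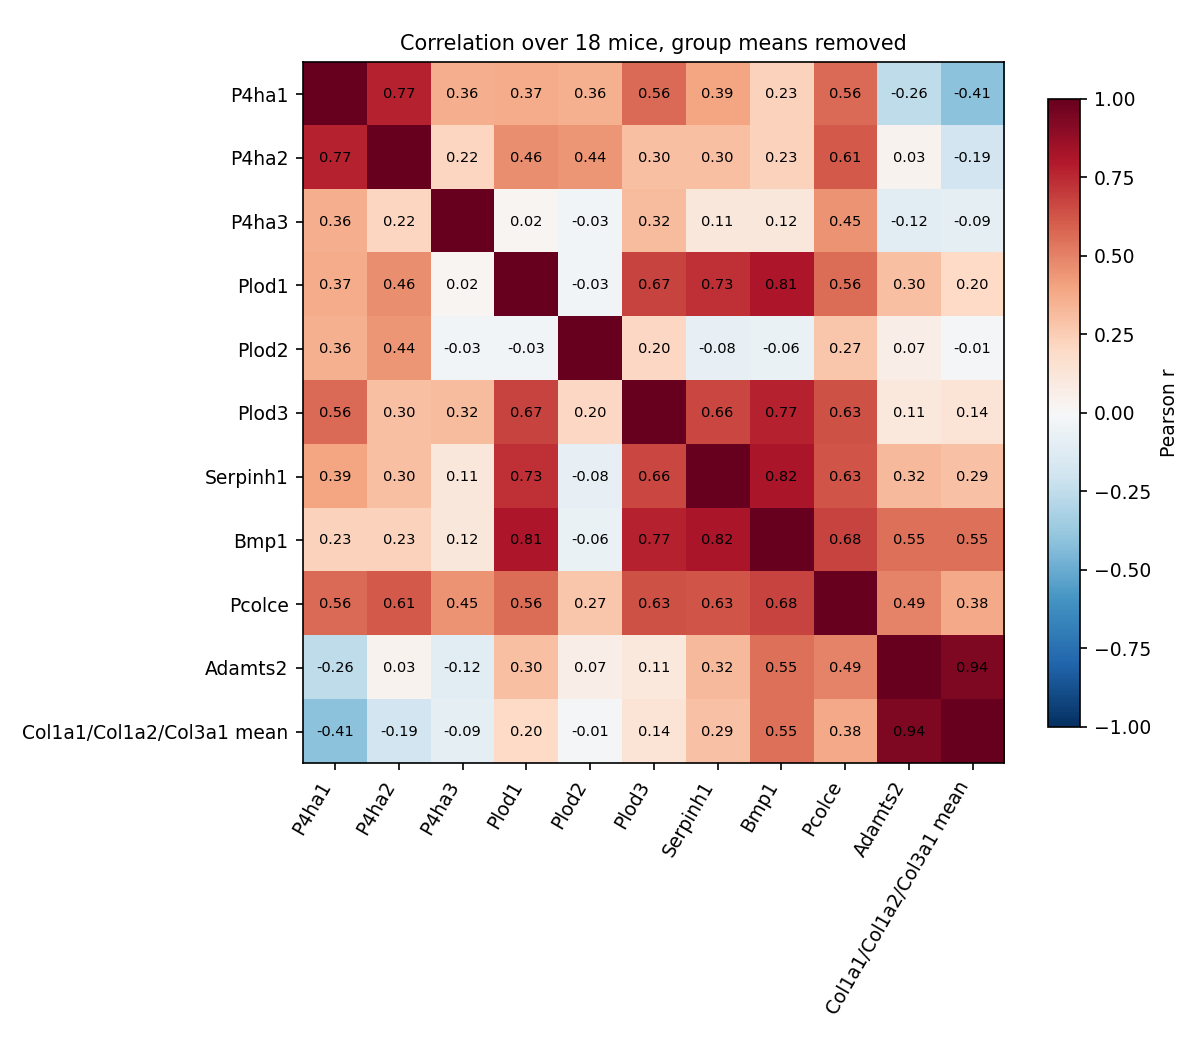
Pearson correlation of log2 CPM between members, and with the mean of Col1a1, Col1a2 and Col3a1, over 18 mice after the group means were removed, on a colour scale from -1 to 1. Plod1, Plod3, Serpinh1 and Bmp1 form a block from 0.66 to 0.82, and Adamts2 has its highest value, 0.94, with the collagens.

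**Figure D5:**
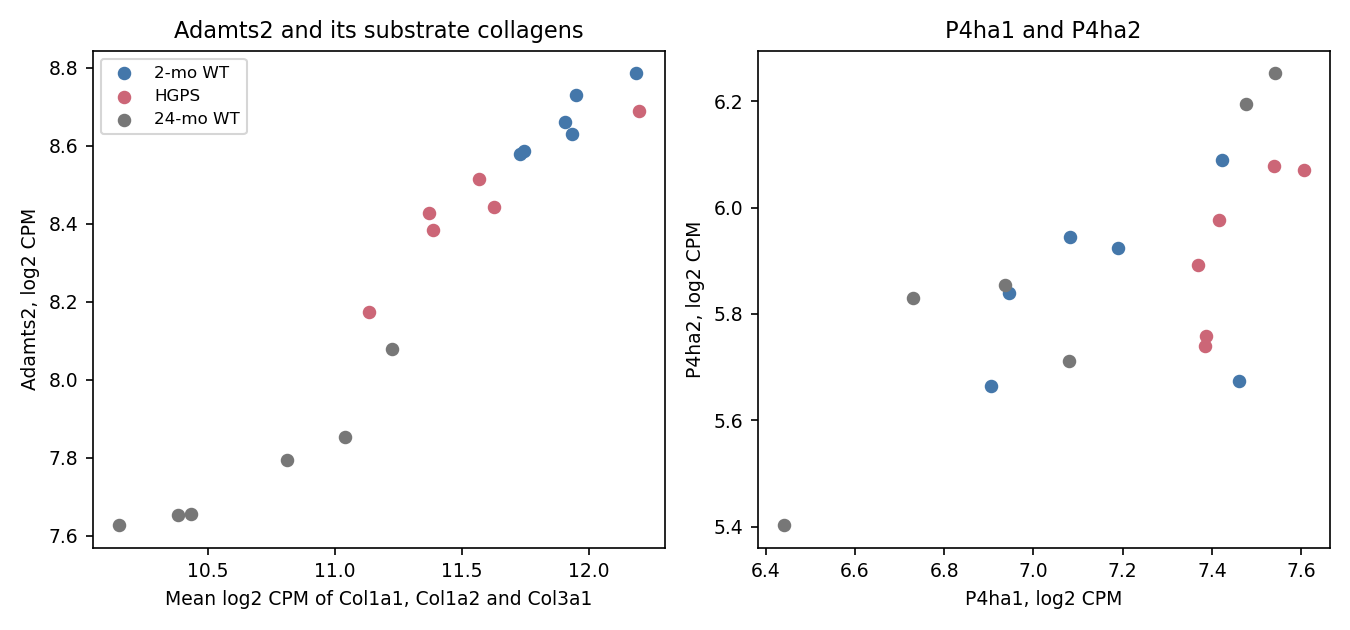
Left, log2 CPM of Adamts2 against the mean log2 CPM of Col1a1, Col1a2 and Col3a1, and right, log2 CPM of P4ha2 against that of P4ha1, one point per mouse and colours for the 3 groups. In the left panel the mice of all groups lie along a single band (0.94 with the group means removed), and in the right panel the 24-mo WT mice span the widest range of both genes.

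The genes most like each member in this measure (of 10707 genes whose mean count reached 100) were collagen genes for Adamts2: Col1a2 (0.97), Col6a1 (0.88) and Col3a1 (0.87). For P4ha1 they were Ahsa2 (0.96), Mthfd2 (0.94) and Eif3d (0.93), and for P4ha2 they were Herpud1 (0.90), Tlr7 and Tmem229b (both 0.87). Serpinh1 was most like Rcn3 (0.94), a reticulum protein of the secretory pathway, followed by Lemd2 (0.91) and Zfp651 (0.90). Plod1 was nearest to Slc39a13 (0.93), Plod2 to Hsf2 (0.85), Plod3 to Pld3 (0.87), Bmp1 to Tsku (0.90), Pcolce to Mmp2 (0.87) and P4ha3 to a gene named 1500015O10Rik (0.89). Against the marker scores, P4ha1 had its highest value with macrophages (0.74), and Adamts2 (0.78) and Pcolce (0.73) had theirs with fibroblasts.

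Among 15 other genes of hydroxylation and folding, all tested, 7 were lower at an adjusted p under 0.05 in 24-mo WT against 2-mo WT, beside 5.38% of all genes, and P3h2, a prolyl 3-hydroxylase, had groups apart in the other direction without passing the test (0.34, adjusted p = 0.0628). In HGPS 6 were higher and 3 lower, beside 22% and 21.2% of all genes. Among the 6 higher was Colgalt2 (1.06, adjusted p = 0.0455). It had 2 to 6 counts per 2-mo WT mouse, 1 to 11 in 24-mo WT and 9 to 14 in HGPS. Colgalt2 thus passed the count filter mainly through the HGPS group and adds nothing to that count. P4hb, the beta subunit, followed the pattern of Plod2: it rose in HGPS from 803 ± 30.6 to 1065 ± 68.7 CPM (SD, n = 6, log2 fold change 0.41, adjusted p = 3.02e-05) and fell by 0.29 in 24-mo WT (adjusted p = 0.00274), with all groups apart. Crtap, a partner of prolyl 3-hydroxylase, was lower in HGPS by 0.19 on the log2 scale (adjusted p = 0.0142) and had -0.17 in 24-mo WT (adjusted p = 0.0749). P3h1 (0.65, adjusted p = 1.95e-07) and P3h4 (0.60, adjusted p = 9.37e-06), of the 3-hydroxylase family, were past the cut-offs of the study in HGPS against 24-mo WT, as was P4hb (0.70, adjusted p = 3.34e-08).

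Of 7 procollagen export genes, 2 were lower in 24-mo WT, beside 5.38% of all genes, and in HGPS 1 was higher and 2 lower, beside 22% and 21.2%. Of 7 other propeptide processing genes 4 were tested, of which 1 was lower in 24-mo WT and 1 higher in HGPS. Pcolce2, the second enhancer of the C-proteinase, fell with age from 262 ± 11.5 to 111 ± 16.6 CPM (SD, n = 6, log2 fold change -1.24, adjusted p = 2.13e-08), further than Pcolce, and had 0.21 in HGPS (adjusted p = 0.0558). Adamts3, a second N-proteinase, exceeded its 24-mo WT level in HGPS (1.03, adjusted p = 8.57e-05). Of the 5 cross-linking oxidases, 4 were lower in 24-mo WT (5.38% of all genes) and 3 were higher in HGPS (22%). Lox had the pattern of Plod2 and P4hb with wider steps, a rise of 0.85 in HGPS (adjusted p = 6.19e-07) and a fall of 0.94 on the log2 scale in 24-mo WT (adjusted p = 5.54e-07), and in HGPS against 24-mo WT it was 1.79 higher (adjusted p = 3.30e-11), followed by Loxl4 (0.96, adjusted p = 5.34e-06) and Loxl2 (0.79, adjusted p = 2.00e-06). The fall of Lox with age differs from the account of the study. The study describes Lox mRNA as minimally altered between these ages in its sequencing, and not significantly changed by RT-qPCR. It also reports that LOX protein rose with age in the carotid artery.

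Of 12 hypoxia target genes other than the members, 11 were tested. In HGPS 6 were higher and 1 was lower than in 2-mo WT, beside 22% and 21.2% of all genes. The glycolytic genes Ldha (0.95, adjusted p = 2.97e-06) and Pgk1 (0.65, adjusted p = 5.26e-05) rose and Adm, which encodes adrenomedullin, fell by 0.92 on the log2 scale (adjusted p = 0.000274), while Vegfa had -0.02 (adjusted p = 0.934). In 24-mo WT Ndrg1 rose (0.98, adjusted p = 6.57e-08), Adm fell by 1.10 on the log2 scale (adjusted p = 0.000226), and the other 9 did not pass the test (6.29% of all genes were higher and 5.38% lower).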

How the data were processed

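RNA from 18 descending aortas, depleted of ribosomal RNA, was sequenced in stranded paired-end libraries. The authors assigned reads to GENCODE M23 transcripts (GRCm38.p6) with salmon and combined transcripts into genes through tximport. They deposited estimated counts as whole numbers, not normalized. Groups and replicate numbers came from the sample labels, which name no batch. Names, coordinates and exon lengths came from GENCODE M21, of the same assembly, in which 54107 identifiers were found. The members, gene lists and tests were chosen with earlier results of these data known, so no p was adjusted over a list alone.

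The 15210 genes that reached 10 counts in 6 or more mice were normalized by TMM and tested with edgeR 4.0.16 in R 4.3.3 (quasi-likelihood, 3 groups in one fit, 15 residual degrees of freedom), with Benjamini-Hochberg adjustment across all of them. The SE is the log2 fold change over the square root of F. A prior count of 2 entered log2 CPM. The fits were tested on simulated data. All members were named, with the genes of other lists past the cut-offs of the study (at most 3 per direction, list and comparison), Col1a1, Col1a2, Col3a1, Lox, P4hb, Crtap, and genes among the 3 most like each member. Col5a2 in HGPS against 2-mo WT, Vegfa, P3h2, Colgalt2 and Ibsp were named after their values were seen. No mouse duplicated another (45 pairs within groups, chi-square over its degrees of freedom between 7.77 and 93.8). Alternatives were DESeq2 1.42.0, other normalizations and filters, a replicate block, fits of only the groups compared, fits without each mouse in turn, and marker scores as covariates.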

Additional observations from a re-analysis of the deposited data

Results flagged for a closer look

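Values were screened for a mouse whose gap to its nearest neighbour, divided by the range of its group, exceeded Dixon's 95% critical value for 6 mice. Of 30 group and member combinations, 2 exceeded it, where chance alone gives about 5%. P4ha3 in 2-mo WT replicate 2 was the lowest of its group at 0.118 CPM, which is 2 counts. Plod2 in HGPS replicate 2 was the lowest of its group at 175.0 CPM, still above every 2-mo WT mouse. Without that mouse Plod2 remained higher in HGPS than in 2-mo WT.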

How the results depend on the processing

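Apart from the covariate fits, the 6 falls in 24-mo WT and the rise of Plod2 in HGPS kept their direction and an adjusted p under 0.05 in all 19 alternatives run. The number of members called at an adjusted p under 0.05, here with P4ha3 included (3 in HGPS against 2-mo WT, 6 in 24-mo WT against 2-mo WT and 7 in HGPS against 24-mo WT) was 1 in the first when 50 counts in 6 mice were required, which removed P4ha3 and left Adamts2 at 0.052. With smooth muscle and fibroblast scores as covariates it was 0, 0 and 2, and at the cut-offs of the study 0, 0 and 0 in place of 0, 2 and 4. The same fit called 0.0394%, 0.75% and 1.27% of all genes at an adjusted p under 0.05, and 0, 6 and 5 genes at those cut-offs. In that fit Adamts2 turned to 0.33 in HGPS against 2-mo WT (adjusted p = 0.572). At the cut-offs of the study DESeq2 called 1 member in HGPS against 2-mo WT in place of 0. Leaving out 1 mouse at a time gave 2 to 3, 6 to 6 and 7 to 8 members at an adjusted p under 0.05, and 0 to 0, 2 to 3 and 4 to 4 at the cut-offs of the study. Same-numbered mice of different groups did not deviate together (correlations of -0.16 to 0.17), so the numbers do not pair them. The replicate block gave 3, 6 and 8 members, and 0, 2 and 4 at the cut-offs of the study, the added one being P4ha1 in HGPS against 24-mo WT (0.40, adjusted p = 0.0358). P4ha1 also passed there under DESeq2, other filters, library totals and brown fat and skeletal muscle covariates. The last of these ended the call of P4ha3 in HGPS against 2-mo WT (1.67, adjusted p = 0.0796). The fall of Adamts2 in HGPS did not pass with library totals (adjusted p = 0.0587), without a filter (0.0866) or with those covariates (0.0674). Depth limits P4ha3 above all.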
